A study of Homo sapiens with 14 samples.

Results

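The genes described here are 45 DNA damage response and repair genes, out of 58434 gene rows in the count table of the whole series. They were chosen by name from a list that covers the apical kinases, the break sensors and scaffolds, and the enzymes of each repair route. The rule is by name and holds no cutoff on a measured value, but the list and the contrast within it were drawn up with earlier results of these data known. In that contrast, 8 long sensor or scaffold mRNAs (ATM, ATR, PRKDC, MDC1, TP53BP1, RIF1, BRCA1 and BRCA2) were set against 3 short repair enzyme mRNAs (MPG, UNG and NTHL1). The cells were MDA-MB-231, an oestrogen receptor negative human breast cancer line, carrying an shRNA that doxycycline switches on. The shRNA was directed at DAP5 in the line MB-231-shDAP5 and was non-silencing in the line MB-231-shNSi. DAP5, encoded by EIF4G2, is a relative of the scaffold eIF4G that lacks the part that binds the cap-binding protein eIF4E, and the study asked which mRNAs need it to be well translated. Both lines carried the same kind of lentiviral vector with a red fluorescent reporter, were selected with puromycin and sorted for the reporter, and were given doxycycline at 1 µg/ml for 6 days, so the controls share the vector, the reporter and the drug. Each shRNA is represented by 1 sorted line and 2 cultures, and the labels name no DNA-damaging agent. RNA was sequenced from total mRNA and from pools of a sucrose gradient, named light polysomes (poorly translated mRNA) and heavy polysomes (well-translated mRNA), and from moderate polysomes in shNSi, which gives 14 libraries in 7 groups of 2.

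DNA breaks are detected by sensor complexes that activate the large kinases ATM, ATR and DNA-PKcs, and scaffold proteins such as MDC1, 53BP1 and BRCA1 then gather the repair machinery on the chromatin. Breaks are rejoined by non-homologous end joining or by homologous recombination, cross-links are handled by the Fanconi pathway, bulky lesions by nucleotide excision repair, copying errors by mismatch repair, and small base lesions by glycosylases and the base excision pathway. Many of the sensors and scaffolds are very large proteins with long coding sequences, whereas glycosylases are small. A gradient separates mRNAs by the number of ribosomes they carry, and a longer coding sequence has room for more ribosomes.

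Total counts per library ran from 25899838 to 30795910, and levels are given below as CPM, which are counts scaled to a common library size with TMM factors over the 14 libraries. EIF4G2 itself was lower in shDAP5 total mRNA (log2 -1.11, SE 0.18, adjusted p = 0.0172 by edgeR's quasi-likelihood test), while its differences in heavy polysomes (log2 -0.86, adjusted p = 0.0691) and in light polysomes (log2 -1.33, adjusted p = 0.430) did not pass 0.05. VIM, CD44, AXL and CAV1, which this line is known to express, were at 105.1 CPM or above in each library, and ESR1, PGR and CDH1 were at or below 0.606 CPM. EPCAM ranged from 2.91 to 6.11 CPM. The TMM factors of the shNSi heavy libraries, 0.763 and 0.702, were below those of the other libraries, 0.899 to 1.16. The sample codes of the shDAP5 light libraries carry the letters used for the shNSi moderate pool, and these libraries were taken by their titles. The shDAP5 total libraries are titled as total polysome, but their codes end like those of the shNSi total libraries, and they were taken as total mRNA. If they hold polysome RNA, the total mRNA and translation efficiency comparisons set unlike material side by side, which was not tested. Since no shDAP5 moderate library was analysed here, whether the heavy pools of both lines span the same part of the gradient cannot be told apart from an effect of the shRNA.

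Because DAP5 acts at translation initiation, the bases around the annotated start codon are shown for 10 of the 11 contrasted genes, as windows of 20 bases from the GENCODE transcripts of GRCh38 that run from the 5′ UTR into the coding sequence. The start codon is in capitals.
ATM (chromosome 11, bases 376 to 395 of the transcript): attgtgaaccATGagtctag
ATR (chromosome 3, bases 113 to 132 of the transcript): cagcctcagcATGggggaac
MDC1 (chromosome 6, bases 639 to 658 of the transcript): aaagtagatcATGgaggaca
TP53BP1 (chromosome 15, bases 244 to 263 of the transcript): tggggagcagATGgacccta
RIF1 (chromosome 2, bases 474 to 493 of the transcript): ggtggccgacATGacggcca
BRCA1 (chromosome 17, bases 223 to 242 of the transcript): acagaaagaaATGgatttat
BRCA2 (chromosome 13, bases 224 to 243 of the transcript): gtaggtaaaaATGcctattg
MPG (chromosome 16, bases 222 to 241 of the transcript): aacccacaggATGgtcaccc
UNG (chromosome 12, bases 97 to 116 of the transcript): cagctccaggATGatcggcc
NTHL1 (chromosome 16, bases 10 to 29 of the transcript): ggccgccgggATGtgtagtc
A purine at the third base before the ATG together with a G right after it, written ANNATGG or GNNATGG on the transcript strand, was present in 15 of the 45 members (33.3%) and in 42.5% of 17853 coding genes. Among the long mRNAs 4 of 8 had both bases, and among the short enzyme mRNAs MPG alone had both. The members' median coding sequence was 2736 nucleotides, against 1302 for all coding genes of the table, and it was 7677 nucleotides for the 8 long mRNAs and 939 for the 3 short ones.

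In shDAP5 cells 5 of the 8 long sensor and scaffold mRNAs (ATR, PRKDC, MDC1, TP53BP1 and RIF1) were lower in heavy polysomes, relative to their total mRNA, than in shNSi cells, and the small glycosylase MPG was higher. Translation efficiency in heavy polysomes, which is the heavy level relative to the total level of the same culture, was lower for 16 of the 45 members and higher for 1 at an adjusted p under 0.05. Over all 15374 genes tested the shares called were 8.23% lower and 4.85% higher. The median change of the 45 members was log2 -0.86, of the 8 long mRNAs -1.42 and of the 3 short enzyme mRNAs 0.70, beside 0.09 for all genes. Calls here and below are those of edgeR (quasi-likelihood test), with p adjusted by Benjamini-Hochberg across the genes tested, all 45 members passed the filter on low counts in each comparison, and a bulk library cannot tell fewer cells with an mRNA from less of it per cell. The count of 17 calls rested on culture 2 of each line (0 calls without either), and it fell to 0 with the unscaled library sizes in place of TMM and to 0 without a term for each culture, where in both fits 0% of genes were called. At an unadjusted p under 0.05 these fits held 19 and 25 members, beside 29.9% and 22.6% of genes, and the median of the 45 members was log2 -0.65 and -0.85. With the unscaled sizes the median was log2 -1.20 for the long and 0.91 for the short mRNAs. With limma on quantile-normalized log2 CPM 3 members were called, TP53BP1 and MSH6 lower and MPG higher, among 167 genes lower and 241 higher. No call was left, and 0% of genes were called, with shNSi heavy and moderate summed as the control or with shNSi moderate alone (3 and 4 members at an unadjusted p under 0.05, beside 2.51% and 2.95% of genes), and under the latter the median of the 8 long mRNAs was above 0 (log2 0.36). With coding length offsets none of the 5 long mRNAs named above passed.

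**Figure D1:**
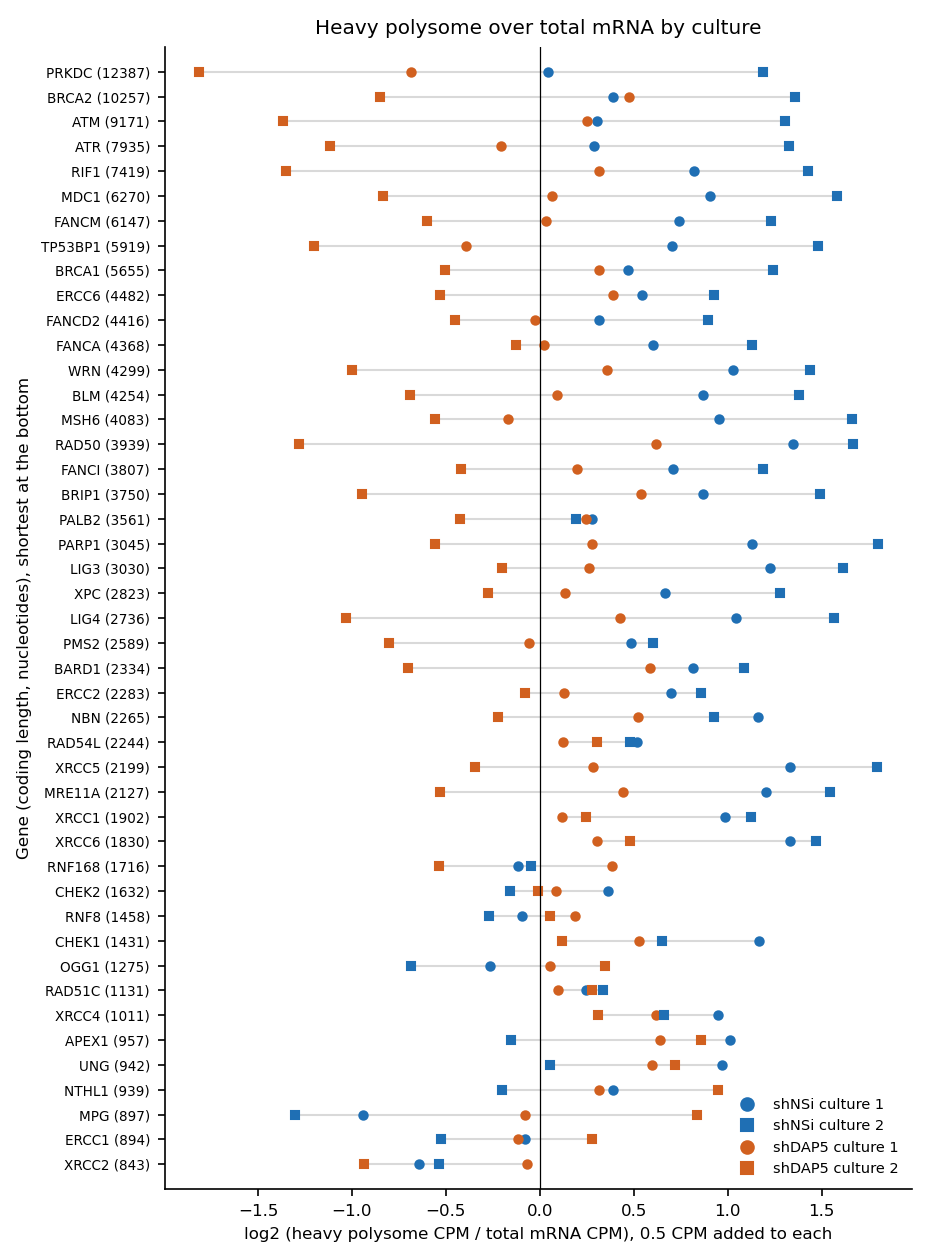
Log2 ratio of heavy polysome CPM to total mRNA CPM (x axis, 0.5 CPM added to each) for the 45 genes, ordered by coding length with the longest on top, as 1 point for each culture (blue, shNSi; orange, shDAP5; circles, culture 1; squares, culture 2). Most long genes have both orange points left of both blue points, and the squares lie farthest apart.

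The ratio of heavy to total CPM did not overlap between the lines for 35 members. Both shDAP5 cultures were below both shNSi cultures in 32 members, a pattern seen in 33.8% of all tested genes, and above both in 3 members, against 25.5% of all genes. The remaining 10 members overlapped. The share of all genes whose heavy CPM alone did not overlap was not computed, so such separations below describe single genes. For 1 gene in 2 cultures of each line, the smallest p of an exact permutation test is 0.333, so the tests rest on the spread that edgeR shares across genes.

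In total mRNA no member was called, where 0.354% of 14992 genes were. At an unadjusted p under 0.05 there were 4 members, all lower in shDAP5, where 7.01% of all genes tested were lower and 4.99% higher, and neither DESeq2 nor limma called any. The changes in total mRNA ran from -0.55 for FANCA, a core subunit of the Fanconi ubiquitin ligase complex, to 0.48 for PMS2, an endonuclease subunit of mismatch repair. In total mRNA per kilobase of transcript, the highest member was XRCC6 at 200.9 ± 15.9 CPM per kilobase (SD, n = 4 total libraries of both lines) and the lowest was RAD50 at 0.266 ± 0.0257. The RAD50 level is uncertain, since another annotated gene on the same strand, AC116366.3, covers 79.7% of its exon bases.

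Among the apical and checkpoint kinases, 2 of 5 were called lower in heavy translation efficiency and none higher, and limma called 0. PRKDC, which encodes the DNA-PKcs kinase of end joining, was at 227 and 451 CPM in the shNSi cultures and 86.4 and 48.9 CPM in the shDAP5 cultures in heavy polysomes. Its total mRNA was at 219.8 and 198 CPM in the shNSi cultures and 139 and 173 CPM in the shDAP5 cultures. Both shDAP5 heavy values were below both control values by a wide margin, while the total values, which did not overlap either, were closer, and the heavy translation efficiency of PRKDC was 3.31-fold lower (log2 -1.73, SE 0.40, adjusted p = 0.0103). ATR, the kinase that responds to single-stranded DNA at stalled forks, was at 43.1 and 75.7 CPM in the shNSi cultures and 23.3 and 16.2 CPM in the shDAP5 cultures in heavy polysomes. In total mRNA ATR was at 35.3 and 29.9 against 27.0 and 35.8 CPM, so the groups overlapped in total mRNA and not in heavy polysomes, and its translation efficiency was 2.54-fold lower (log2 -1.35, SE 0.38, adjusted p = 0.0201). ATM, the kinase activated by double-strand breaks, was at 68.2 and 78.0 CPM in the shNSi cultures and 43.8 and 16.6 CPM in the shDAP5 cultures in heavy polysomes. The total mRNA of ATM was at 55.1 and 31.2 against 36.8 and 43.7 CPM. The total values overlapped and the heavy values did not, with shDAP5 culture 2 the lowest, and its translation efficiency did not pass the threshold (log2 -1.23, SE 0.46, adjusted p = 0.0861). CHEK1 and CHEK2, the kinases that act after ATR and ATM, had changes of log2 -0.44 (adjusted p = 0.389) and 0.08 (adjusted p = 0.907). In CHEK2, which has near-identical pseudogene copies that can take part of its reads, the heavy values were 21.8 and 17.5 against 17.3 and 17.4 CPM.

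**Figure D2:**
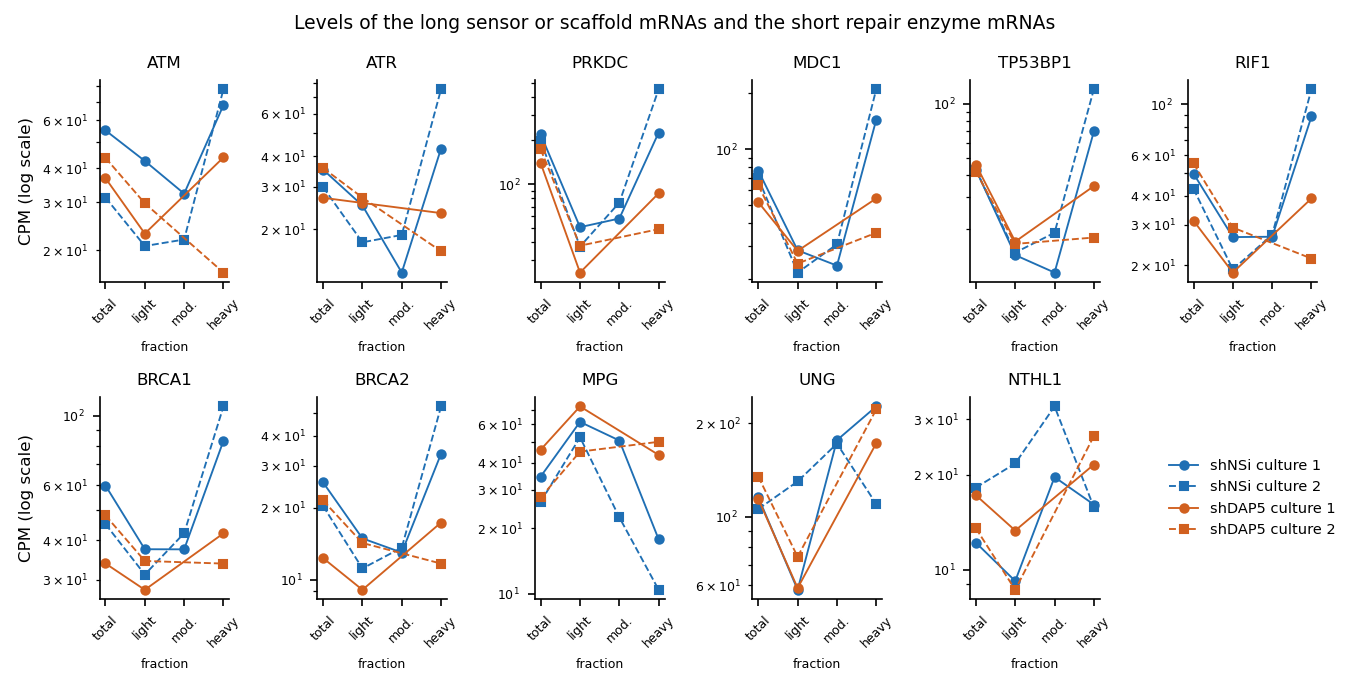
CPM (y axis, log scale, a separate range in each panel) in total mRNA and in light, moderate and heavy polysomes for the 8 long sensor or scaffold mRNAs and the 3 short repair enzyme mRNAs, with 1 line for each culture (blue, shNSi; orange, shDAP5; solid, culture 1; dashed, culture 2). The blue lines of the 8 long mRNAs peak in heavy polysomes, where both orange values lie below both blue values, a pattern not counted over all genes.

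The sensors, scaffolds and ubiquitin ligases that mark a break held 5 lower calls among 8 members, of which limma called 1. MDC1, the scaffold that binds phosphorylated H2AX, was at 144 and 209.6 CPM in the shNSi cultures and 54.3 and 35.5 CPM in the shDAP5 cultures in heavy polysomes and at 76.6 and 69.6 against 51.9 and 63.7 CPM in total mRNA. Its translation efficiency was 2.81-fold lower (log2 -1.49, SE 0.35, adjusted p = 0.00838). TP53BP1, which encodes the end-protecting scaffold 53BP1, was at 70.0 and 121 CPM in the shNSi cultures and 34.6 and 17.9 CPM in the shDAP5 cultures in heavy polysomes. Its total values overlapped (42.8 and 42.8 against 45.6 and 41.7 CPM), and its translation efficiency was 3.40-fold lower (log2 -1.76, SE 0.36, adjusted p = 0.0057). RIF1, which works with 53BP1 to limit end resection, was at 88.5 and 116 CPM in the shNSi cultures and 38.9 and 21.3 CPM in the shDAP5 cultures in heavy polysomes and at 49.9 and 42.9 against 31.2 and 55.3 CPM in total mRNA, and its translation efficiency was 2.85-fold lower (log2 -1.51, SE 0.43, adjusted p = 0.0267). In these 3 scaffolds both shDAP5 heavy values lay below both shNSi values, without a share of all genes to set beside it.

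The subunits of the MRE11 complex, which senses and trims broken ends, were all below 0 in heavy translation efficiency, and the differences among them were not tested. MRE11A, the nuclease, which the table names MRE11, was at 98.3 and 116 CPM in the shNSi cultures and 41.1 and 28.3 CPM in the shDAP5 cultures in heavy polysomes (log2 -1.28, SE 0.35, adjusted p = 0.016 for translation efficiency). RAD50, the coiled-coil ATPase that bridges ends, had the lowest change of the 45 members (log2 -1.90, SE 0.56, adjusted p = 0.0327), on heavy levels of 6.76 and 7.30 against 3.50 and 0.695 CPM. The shDAP5 culture 2 value of RAD50 stood on 18 counts, and another annotated gene on the same strand, AC116366.3, covers 79.7% of its exon bases, so its value is uncertain. NBN, the subunit that recruits ATM, did not pass (log2 -0.75, SE 0.34, adjusted p = 0.126). The ubiquitin ligases RNF8 and RNF168, which modify chromatin around a break once MDC1 is bound, had values of log2 0.45 and 0.15 that did not pass either (adjusted p = 0.376 and 0.813).

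No homologous recombination gene of the 7 listed was called in heavy translation efficiency, although 3 had an unadjusted p under 0.05, beside 29.7% of all genes tested, and neither DESeq2 nor limma called any of the 7. BRCA1, which promotes end resection, was at 83.2 and 107 CPM in the shNSi cultures and 42.1 and 33.7 CPM in the shDAP5 cultures in heavy polysomes. BRCA2, a mediator of strand exchange, was at 33.6 and 53.0 CPM in the shNSi cultures and 17.4 and 11.7 CPM in the shDAP5 cultures in heavy polysomes. In heavy polysome mRNA alone both were called lower (BRCA1 log2 -1.14, SE 0.33, adjusted p = 0.00478, and BRCA2 log2 -1.39, SE 0.34, adjusted p = 0.000762). Their total values, 59.9 and 45.1 against 33.8 and 48.1 CPM for BRCA1 and 25.5 and 20.4 against 12.3 and 21.5 CPM for BRCA2, were lowest in shDAP5 culture 1. Relative to total mRNA, the changes of BRCA1 (log2 -0.81, adjusted p = 0.116) and BRCA2 (log2 -0.94, adjusted p = 0.129) did not pass. Their partners BARD1 and PALB2 were at log2 -0.88 and -0.19, the strand-exchange factors RAD51C, RAD54L and XRCC2 were between log2 -0.14 and 0.24, and none of these 5 passed.

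In non-homologous end joining, 2 of 4 members were called lower, while DESeq2 called 3 and limma 0. XRCC5, the larger-coding subunit of the Ku heterodimer, was at 975 and 1632 CPM in the shNSi cultures and 379.9 and 288 CPM in the shDAP5 cultures in heavy polysomes and its translation efficiency was 2.73-fold lower (log2 -1.45, SE 0.37, adjusted p = 0.0113). Its partner XRCC6 was at 1315 and 1684 CPM in the shNSi cultures and 637 and 744 CPM in the shDAP5 cultures and did not pass (log2 -0.86, SE 0.37, adjusted p = 0.106). LIG4, the ligase of this route, was at 49.1 and 64.1 CPM in the shNSi cultures and 22.8 and 10.7 CPM in the shDAP5 cultures in heavy polysomes (log2 -1.49, SE 0.40, adjusted p = 0.0172). The groups of heavy values did not overlap in any of these 3 genes, and the share of all genes with this pattern was not computed. XRCC4, the small cofactor of LIG4, was at log2 -0.20 (adjusted p = 0.735).

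All 7 members of the Fanconi pathway and helicase group had a change below 0 and an unadjusted p under 0.05, and 4 passed the adjusted threshold, of which limma called 0. Over all genes tested, 16.2% were lower at an unadjusted p under 0.05. With coding length offsets 5 of the 7 changes were below 0, and with shNSi moderate as control 0 were. BLM, the helicase that dissolves recombination intermediates, was at 105 and 180.0 CPM in the shNSi cultures and 43.1 and 35.1 CPM in the shDAP5 cultures in heavy polysomes (log2 -1.29, SE 0.35, adjusted p = 0.0147). WRN, a helicase with exonuclease activity, was at 28.8 and 33.3 CPM in the shNSi cultures and 14.7 and 8.65 CPM in the shDAP5 cultures (log2 -1.45, SE 0.38, adjusted p = 0.0154). BRIP1, the helicase partner of BRCA1, was at 70.2 and 93.3 against 36.0 and 21.1 CPM in heavy polysomes (log2 -1.25, SE 0.40, adjusted p = 0.0393), and FANCM, the translocase that recruits the Fanconi core complex, was at 21.2 and 32.0 against 14.1 and 9.92 CPM (log2 -1.16, SE 0.36, adjusted p = 0.0269). In each of these 4 genes shDAP5 culture 2 was the lowest heavy library and shNSi culture 2 the highest. FANCA, FANCD2 and FANCI, of the core complex and its substrate pair, were at log2 -0.78, -0.71 and -0.92 and did not pass.

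Of the mismatch repair pair, MSH6, which recognises single mismatches, was called lower, also by limma. Its heavy polysome level was 188 and 312 CPM in the shNSi cultures and 71.6 and 63.0 CPM in the shDAP5 cultures, and its translation efficiency was 2.89-fold lower (log2 -1.53, SE 0.34, adjusted p = 0.0075). PMS2 did not pass (log2 -0.87, SE 0.36, adjusted p = 0.0931), and its reads may be shared with the near-identical copy PMS2CL. None of the 4 nucleotide excision repair members was called by edgeR, DESeq2 or limma, with 1 at an unadjusted p under 0.05, beside 29.7% of all genes tested. XPC, the lesion sensor, was at log2 -0.92 (adjusted p = 0.0714). ERCC2, a helicase of TFIIH, ERCC6, the transcription-coupled repair factor CSB, and ERCC1, a subunit of the incision nuclease, were at log2 -0.61, -0.68 and 0.53.

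Base excision and single-strand break repair held calls in both directions, 2 lower and 1 higher, of which limma called the 1 higher. PARP1, which senses single-strand breaks and signals with poly(ADP-ribose), was at 622 and 1144 CPM in the shNSi cultures and 268 and 194 CPM in the shDAP5 cultures in heavy polysomes, and its translation efficiency was 2.75-fold lower (log2 -1.46, SE 0.37, adjusted p = 0.0108). LIG3, the ligase of single-strand break repair, was at 46.0 and 73.1 CPM in the shNSi cultures and 23.2 and 16.1 CPM in the shDAP5 cultures in heavy polysomes (log2 -1.27, SE 0.35, adjusted p = 0.0164). XRCC1, the scaffold that carries LIG3, did not pass (log2 -0.74, SE 0.34, adjusted p = 0.133), although its heavy values did not overlap (54.2 and 64.6 against 29.3 and 27.4 CPM).

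MPG, the glycosylase that removes alkylated purines, was the 1 member called higher. Its heavy polysome level was 17.8 and 10.4 CPM in the shNSi cultures and 43.4 and 49.9 CPM in the shDAP5 cultures, and its total mRNA was at 34.6 and 26.4 CPM in the shNSi cultures and 45.9 and 27.7 CPM in the shDAP5 cultures. Both shDAP5 heavy values were above both control values while the total values overlapped, and its translation efficiency was 3.20-fold higher (log2 1.68, SE 0.36, adjusted p = 0.00746). In the annotation NPRL3 overlaps MPG on the opposite strand over 27.3% of its exon bases, and the name of the deposited table carries the tag rev, which may mark reverse-strand counting but is not explained in the sources used here. Opposite-strand genes or pseudogenes also overlap 16.5% of the exon bases of NTHL1, 28.7% of those of TP53BP1, 29.1% of LIG3, 16.4% of ATR and 16.2% of MSH6, and if strand was not used in counting such reads cannot be told apart. UNG, which removes uracil from DNA, was at 227 and 109.7 CPM in the shNSi cultures and 172 and 222 CPM in the shDAP5 cultures in heavy polysomes. In total mRNA UNG was at 115 and 106 against 114 and 135 CPM. The shDAP5 heavy values of UNG fell between the shNSi cultures, and its change did not pass (log2 0.29, SE 0.34, adjusted p = 0.609). NTHL1, which removes oxidised pyrimidines, was at 16.1 and 15.8 CPM in the shNSi cultures and 21.6 and 26.6 CPM in the shDAP5 cultures in heavy polysomes. In total mRNA NTHL1 was at 12.2 and 18.2 against 17.2 and 13.5 CPM. The heavy values of NTHL1 did not overlap, but its translation efficiency did not pass (log2 0.70, SE 0.36, adjusted p = 0.182). The oxidised-guanine glycosylase OGG1 was at log2 0.83 (adjusted p = 0.0951) and the abasic-site endonuclease APEX1 at log2 0.46 (adjusted p = 0.413), and neither passed. The contrast of long and short mRNAs therefore rests, on the short side, on MPG as its sole call.

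In heavy polysome mRNA taken alone, without its total mRNA, 27 members were lower in shDAP5 and 1 was higher, where 16.7% of 14270 genes were lower and 14.2% higher. All 8 long mRNAs were among the lower calls. The count of 28 was 16 without shNSi culture 2, where 14.1% of genes were called, and 0 without shDAP5 culture 2, where 24 members had an unadjusted p under 0.05, beside 24.2% of genes. It was 7 with coding length offsets, where 11.9% of genes were called, and 1 with the summed shNSi control, where 2.77% were. With shNSi moderate as control it was 0, where 0.344% of genes were called, and 2 members had an unadjusted p under 0.05, beside 6.55% of genes. With the unscaled library sizes in place of TMM, a setting that moved the median heavy translation efficiency change of all genes from log2 0.09 to 0.30, the members called in heavy polysome mRNA were 16 lower and 3 higher, and the genes called were 1139 lower and 2504 higher in place of 2390 and 2024. In light polysome mRNA no member was called and 0% of 15529 genes were, with 1 member at an unadjusted p under 0.05, beside 8.56% of genes, and none called by DESeq2 or limma. Light translation efficiency likewise had no member called and 0% of 15967 genes, with 2 members at an unadjusted p under 0.05, beside 5.22% of genes, and none by DESeq2 or limma. Leaving out shNSi culture 1 gave 9 members in light polysome mRNA, where 28.9% of genes were called, and 8 in light translation efficiency, where 12.3% were. Leaving out shNSi culture 2 gave 2 in light polysome mRNA, where 4.82% of genes were called. With shNSi moderate, whose code the shDAP5 light libraries carry, as the control, 7 members were called in light polysome mRNA (6 lower, 1 higher), where 2001 of 15431 genes were lower and 1939 higher. The same control gave 9 in light translation efficiency (6 lower, 3 higher), where 13.8% of genes were lower and 13.8% higher. The median light translation efficiency change was log2 0.10 for the 45 members, 0.21 for the 8 long mRNAs and -0.45 for the 3 short ones. With shNSi moderate as control these medians were log2 0.15, 0.11 and -1.26, and the short mRNAs ranged from -1.55 to 0.53.

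Along the shNSi gradient the long mRNAs had their highest CPM in the heavy pool. These values are shares within each library, and the amounts in each pool were not measured. Of the 45 members, 34 were higher in shNSi heavy than in shNSi light polysomes and 4 were lower, where 34.7% of 16235 genes were higher and 30.5% lower. The 8 long mRNAs were all higher, with a median of log2 1.95, and PARP1 was the farthest toward heavy (log2 3.66) and MPG the farthest toward light (log2 -2.07). Against the heavy pool, the shNSi moderate pool had a lower CPM for 31 members and a higher CPM for 3. Over all genes 24.1% were lower and 13.1% higher. This count of 34 was 20 with coding length offsets (16 lower, 4 higher), where 17.2% of genes were lower and 15.3% higher. The median difference of moderate from heavy was log2 -1.91 for the long mRNAs and 0.65 for the short ones.

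Between the pools titled heavy and light in shDAP5 cells, fewer members were called than in shNSi cells. Of the 45 members, 17 were higher in shDAP5 heavy than in shDAP5 light polysomes and 2 were lower, where 24.6% of genes were higher and 22.6% lower, and the median of the long mRNAs was log2 0.38. The count of 19 was 8 without shDAP5 culture 1 and 9 without shDAP5 culture 2, where 19.8% and 19.4% of genes were called. PRKDC (log2 1.13, SE 0.34, adjusted p = 0.0102) and MDC1 (log2 0.76, SE 0.27, adjusted p = 0.0238) were the long mRNAs still called higher in heavy polysomes. The small enzymes UNG (log2 1.56, adjusted p = 0.00102) and NTHL1 (log2 1.16, adjusted p = 0.00227) were called higher as well. The heavy against light difference itself changed between the lines in 24 members, 23 toward light and 1 toward heavy, where 12.4% of genes moved toward light and 4.70% toward heavy.

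The cultures of a line differed widely in how far the long and short mRNAs were pulled apart. The median log2 ratio of heavy to total for the 8 long mRNAs was 0.43 and 1.34 in the shNSi cultures and 0.16 and -1.16 in the shDAP5 cultures. For the 3 short mRNAs it was 0.39 and -0.20 in shNSi and 0.32 and 0.84 in shDAP5. The long minus short difference was thus 0.04 in shNSi culture 1 and -0.16 in shDAP5 culture 1, but 1.55 in shNSi culture 2 and -2.00 in shDAP5 culture 2. Without shNSi culture 2 the count of members called in heavy translation efficiency was 0, without shDAP5 culture 2 it was 0, without shNSi culture 1 it was 12, and without shDAP5 culture 1 it was 29. Over all genes tested in these 4 fits the shares called were 0.025%, 0.27%, 3.59% and 28.5%, in the same order. The median of the long mRNAs stayed below 0 in these 4 fits, between log2 -1.98 and -0.81, and that of the short mRNAs stayed above 0, between 0.34 and 1.05.

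The size of the change followed coding length in the members and in all genes. Across the 45 members the Spearman correlation of coding length with the heavy translation efficiency change was -0.75, and across 12460 genes it was -0.71, as a description over genes measured in the same libraries. Among the 11 members with a coding sequence of up to 1500 nucleotides none was lower and 1 was higher, beside 0.597% and 9.50% of all genes of that length. Of 13 members above 1500 and up to 3000 nucleotides 3 were lower, beside 15.1% of all such genes. Of 21 members above 3000 nucleotides 13 were lower, beside 33.2%.

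**Figure D3:**
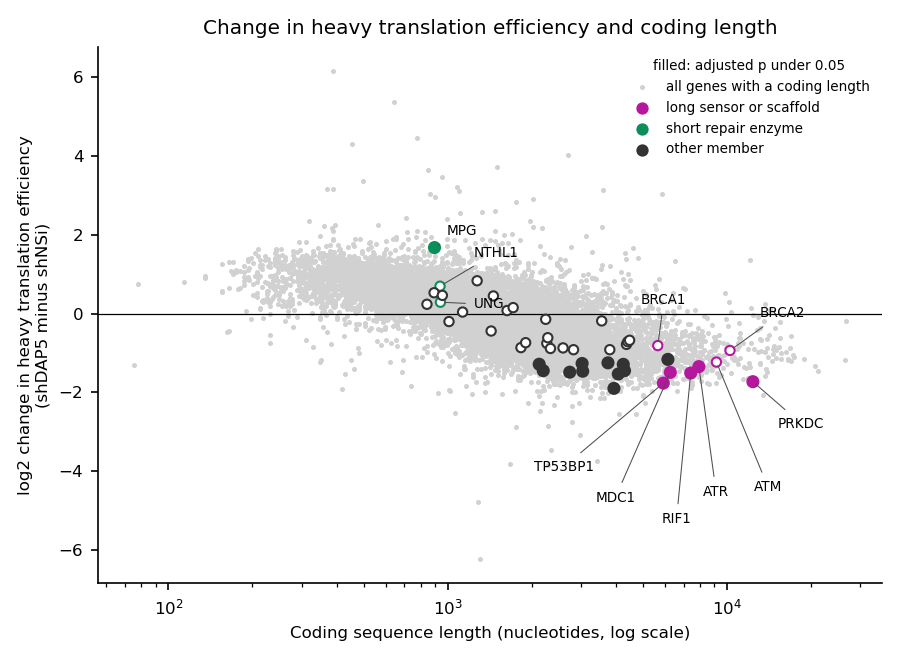
Log2 change in heavy translation efficiency, shDAP5 minus shNSi (y axis), against coding sequence length in nucleotides (x axis, log scale) for the 45 members and, in grey, all genes with a coding length, with filled member points at an adjusted p under 0.05. The members lie within the grey band, which falls from above 0 on the left to below 0 on the right.

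When the trend with coding length was taken out of each library by an offset, 2 members were called, XRCC5 lower (log2 -0.99, adjusted p = 0.0285) and MPG higher (log2 1.28, adjusted p = 0.0181), where 3.72% of 12460 genes were called. The median of the long mRNAs was then log2 -0.44, of the short ones 0.34 and of all members -0.27. BRCA1 and BRCA2 were at log2 0.10 and 0.11 with this offset, and TP53BP1 was the lowest of the 8 long mRNAs (log2 -0.84, adjusted p = 0.0603).

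The direction for the long mRNAs depended on the control pool. With shNSi heavy and moderate counts summed as the control, no member and 0% of genes were called, 3 members had an unadjusted p under 0.05, beside 2.51% of genes, and the median change was log2 -0.57 for the long and 0.28 for the short mRNAs. With shNSi moderate alone, no member and 0% of genes were called, 4 members had an unadjusted p under 0.05, beside 2.95% of genes, 35 of 45 changes were above 0, and the medians were log2 0.36 for the long and -0.018 for the short mRNAs.

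**Figure D4:**
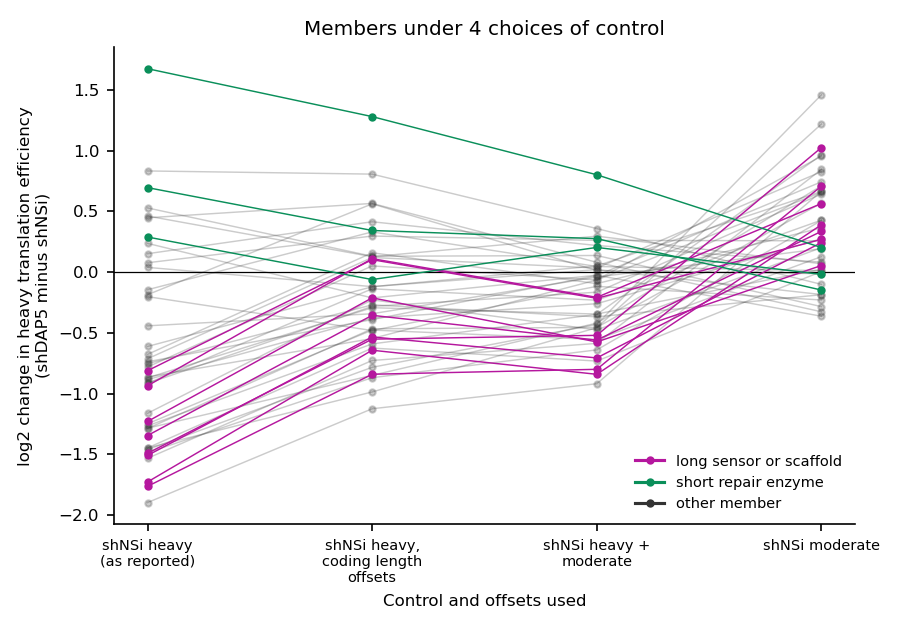
Log2 change in heavy translation efficiency of each of the 45 members (y axis) under 4 choices (x axis), which are shNSi heavy as reported, shNSi heavy with coding length offsets, shNSi heavy and moderate summed, and shNSi moderate alone. The lines of the 8 long mRNAs start between -1.76 and -0.81 and end above 0, and that of MPG falls from 1.68 to 0.20.

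Of 114 other repair genes listed beside the members, 113 were in the table and 112 were tested, and 13 were lower and 5 higher in heavy translation efficiency (median change log2 -0.08), beside the 8.23% lower and 4.85% higher of all genes. Among the lowest were ERCC5, the nucleotide excision nuclease XPG (log2 -2.00, SE 0.54, adjusted p = 0.0167), and HLTF, a fork remodeller (log2 -1.64, SE 0.36, adjusted p = 0.0075). ERCC5 had low heavy levels of 2.75 and 4.69 against 1.33 and 0.463 CPM, the last on 12 counts, so its change is uncertain. Overlap with other annotated genes was looked up for the members only. HLTF was at 102 and 161 against 53.3 and 28.1 CPM. The highest were GTF2H5, the smallest TFIIH subunit (log2 1.23, SE 0.34, adjusted p = 0.0173), H2AFX, the histone that MDC1 binds once phosphorylated (log2 1.23, SE 0.36, adjusted p = 0.0206), and MAD2L2, a shieldin subunit (log2 1.16, SE 0.35, adjusted p = 0.0254). H2AFX was at 140.3 and 152 against 223 and 382 CPM in heavy polysomes, so its change and that of MDC1 had opposite signs.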

How the data were processed

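RNA was sequenced from 14 libraries of MDA-MB-231 cells (7 groups of 2 cultures). The authors deposited 1 table of raw counts per gene, and the submitters' processing notes name STAR 2.6.0a, the hg19 build and limma. The name of the deposited table points to featureCounts and carries the tag rev, which may mark reverse-strand counting. The gene annotation and an explicit strand setting are not given in the sources used here, and no column lacked a sample. Samples were grouped by their titles, with the shDAP5 libraries titled total polysome taken as total mRNA. The members, gene lists and tests were chosen with earlier results of these data known.

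Counts were tested with edgeR 4.0.16 (filterByExpr, TMM, robust quasi-likelihood fit, Benjamini-Hochberg adjustment, threshold 0.05) in R 4.3.3. Each fraction was compared over 4 libraries. Translation efficiency was tested over 8 libraries as the interaction of fraction and shRNA, with a term for each culture. Gradient comparisons used 1 fit of the 14 libraries. DESeq2 1.42.0, limma 3.58.1 (quantile-normalized log2 CPM, 1 CPM added), no filter or a minimum of 10 counts per library, the replicate block, coding length offsets (lowess span 0.3) and other control pools were alternatives. The fitting code was run on simulated counts with the same spread for all genes and no difference between cultures. Those counts held no trend with coding length either, so they cannot show how the calls depend on culture or length. Same-numbered cultures did not deviate together (correlations from -0.31 to 0.06 between lines), so numbers were not treated as pairs. Coding lengths and start windows came from GENCODE transcripts of GRCh38, matched by symbol (the listed MRE11A is MRE11 in the table), with no coordinates carried between builds. Heavy and total levels were given for the 11 contrasted genes and heavy levels for the other members called in heavy translation efficiency, and of the other repair genes the 3 lowest and 3 highest called, of which 1 is not reported here. The smallest count behind a heavy polysome value of a called member was 18, for RAD50.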

Additional observations from a re-analysis of the deposited data

Results flagged for a closer look

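An interaction term in the fit of the 14 libraries, chosen after seeing the data, compared the heavy against light difference between the lines. At an adjusted p under 0.05 (edgeR, quasi-likelihood test) 24 members differed, 23 toward light and 1 toward heavy. Over all genes 12.4% moved toward light and 4.70% toward heavy. Among the contrasted genes the heavy against light difference was lower in shDAP5 by log2 values of -2.07 for TP53BP1, -2.04 for MDC1, -1.86 for ATR, -1.78 for RIF1, -1.78 for PRKDC, -1.36 for BRCA2 and -1.17 for BRCA1. ATM did not pass (-1.19, adjusted p = 0.0936). For MPG the difference was higher in shDAP5 by 1.80. The codes of the shDAP5 light libraries match those of the shNSi moderate pool, and their part in these differences was not tested.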

How the results depend on the processing

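Total mRNA kept 0 members called under its alternatives, and DESeq2, the filters on low counts and 1 fit of the 14 libraries moved no count of members called by over 1.5 times. Cultures carried the heavy results: leaving out each culture gave 0 to 29 members in heavy translation efficiency (0 without culture 2 of either line), 0 to 27 in heavy polysomes (0 without shDAP5 culture 2, 16 without shNSi culture 2), 0 to 9 in light polysomes (9 without shNSi culture 1, 2 without shNSi culture 2), 0 to 8 in light translation efficiency (8 without shNSi culture 1) and 8 to 19 between shDAP5 heavy and light polysomes (8 without shDAP5 culture 1, 9 without shDAP5 culture 2). The lone culture left in a line is then assumed to vary like the others.

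For heavy translation efficiency, the members called were 0 with library size in place of TMM, 3 with limma, 0 without a term for each culture, 0 with shNSi moderate as control, 0 with heavy and moderate summed, 2 with coding length offsets and 4 with these offsets and the replicate block (4.8% of genes). DESeq2 called 1275 genes lower and 405 higher, against 1266 and 746. With the replicate block, 12 members were called (11 lower, 1 higher), among 519 genes lower and 169 higher. Crossing the numbers, which was chosen after seeing the data because same-numbered cultures correlated at -0.31, gave 28 members, among 2375 genes lower and 1758 higher. The numbers do not pair the cultures, and no other comparison's count of members moved by over 1.5 times with the replicate block alone. In total mRNA the block called 253 genes lower and 112 higher, against 40 and 13.

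For heavy polysomes the counts were 7 with coding length offsets, 15 with offsets and the replicate block (among 1657 genes lower and 1245 higher), 0 with shNSi moderate and 1 with the summed control. For light polysomes shNSi moderate gave 7, and for light translation efficiency it gave 9, and shNSi light and moderate summed gave 2 (2.86% of genes). Coding length offsets gave 20 members between shNSi moderate and heavy polysomes.

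The median change in heavy translation efficiency was -0.27 for the members with coding length offsets, with or without the replicate block, 0.27 with shNSi moderate and -0.21 with the summed control. For the long mRNAs these were -0.44, 0.36 and -0.57. For the short mRNAs shNSi moderate gave -0.018 and the summed control 0.28.

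With shNSi moderate as control, 38 of the 45 log2 changes in heavy translation efficiency changed sign, and among the contrasted and called genes they reversed to 0.055 for ATM, 0.34 for ATR, 0.39 for PRKDC, 1.03 for MDC1, 0.71 for TP53BP1, 0.24 for RIF1, 0.27 for BRCA1, 0.57 for BRCA2, -0.018 for UNG, -0.15 for NTHL1, 0.67 for RAD50, 0.71 for MRE11A, 1.22 for XRCC5, 0.43 for LIG4, 0.20 for FANCM, 0.13 for BRIP1, 0.57 for BLM, 0.0051 for WRN, 0.85 for MSH6, 0.97 for LIG3 and 1.46 for PARP1. With coding length offsets, alone or with the replicate block, 10 of 45 changed sign, and among the same genes they reversed to 0.10 for BRCA1, 0.11 for BRCA2 and -0.060 (-0.059 with the block) for UNG. UNG also reversed to -0.17 without shNSi culture 2. The cause of these changes was not tested. Of the called members, RAD50 had the fewest counts.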

Other observations

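Several small base excision mRNAs differed widely between the shNSi cultures. In light polysomes APEX1 was at 105 and 363 against 129.6 and 171 CPM, UNG at 58.1 and 129.8 against 58.8 and 74.2 CPM and NTHL1 at 9.21 and 21.7 against 13.3 and 8.64 CPM, with shNSi culture 2 the highest of the 4 libraries for each. In heavy polysomes APEX1 was at 444 and 234 against 389 and 516 CPM, with shNSi culture 2 the lowest. In shNSi moderate polysomes UNG was at 176 and 172 CPM and XRCC6 at 211 and 669 CPM, so the cultures were close for UNG and far apart for XRCC6.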
